A study of Mus musculus with 17 samples.

Results

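The 38 *Hox* cluster genes of the mouse (10 in HoxA, 10 in HoxB, 9 in HoxC and 9 in HoxD) were followed through ATAC-seq of 17 mouse kidneys. Members were all protein-coding genes analysed here whose GENCODE symbol was *Hoxa*, *Hoxb*, *Hoxc* or *Hoxd* plus a number, out of 21938 protein-coding genes. ATAC-seq maps open chromatin by letting a transposase cut accessible DNA. The files hold, per library, the summits (highest points) of the peaks called by MACS2. The Ctrl group (n = 5) held C57BL/6 mice given saline. The Case group (n = 6) held saline-treated db/db mice, BKS.Cg-Dock7m +/+ Leprdb/J, which lack a working leptin receptor and become obese and diabetic. The Dapa group (n = 6) were mice of that db/db line given dapagliflozin, an inhibitor of the renal glucose transporter SGLT2, by gavage at 1 mg/kg once a day. All mice were male, and treatment began at 8 weeks of age and lasted 6 weeks. Each library was made from 20000 cells of kidney. Ctrl differed from both db/db groups in *Lepr* genotype, diabetes and strain background together, and these cannot be told apart. Each library was a separate mouse, so the p-values below measure the spread between mice.

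*Hox* genes encode homeodomain transcription factors that give cells their position along the body axis. In each cluster, low-numbered paralogs lie at the 3′ end and act anteriorly, while high-numbered paralogs lie at the 5′ end and act posteriorly. Polycomb proteins keep unused parts of a cluster closed and trithorax proteins keep used parts open, and adult cells retain much of the pattern of their place of origin. In the kidney, the paralogs 10 are needed in the embryonic stroma, and the paralogs 11 are needed for the mesenchyme that forms nephrons.

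The 2 promoters shown first were open in these kidneys and the 3 that follow had no summit in any library, and they are shown because both kinds held many CG dinucleotides, from 13 to 35 each. Each is the 250 bases before the RefSeq start of the gene (GRCm38.p6, the build of the files), written 5′ to 3′ on the strand of the gene with CG in capitals. *Hoxa5* (chr6:52204588-52204837, minus strand) had a summit within 1 kb in all 17 libraries and *Hoxd10* (chr2:74691641-74691890, plus strand) in 12. The printed bases themselves held a summit in 1 library of each group for *Hoxa5* and in 4 of each for *Hoxd10*. *Hoxa11* (chr6:52245811-52246060, minus strand), *Hoxa13* (chr6:52260881-52261130, minus strand) and *Hoxd13* (chr2:74667975-74668224, plus strand) had none.
Hoxa5: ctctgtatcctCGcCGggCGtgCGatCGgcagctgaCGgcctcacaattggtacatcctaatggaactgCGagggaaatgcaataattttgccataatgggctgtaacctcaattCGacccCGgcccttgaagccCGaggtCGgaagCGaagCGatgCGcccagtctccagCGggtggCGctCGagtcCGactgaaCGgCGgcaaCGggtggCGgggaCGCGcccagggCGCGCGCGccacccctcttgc
Hoxd10: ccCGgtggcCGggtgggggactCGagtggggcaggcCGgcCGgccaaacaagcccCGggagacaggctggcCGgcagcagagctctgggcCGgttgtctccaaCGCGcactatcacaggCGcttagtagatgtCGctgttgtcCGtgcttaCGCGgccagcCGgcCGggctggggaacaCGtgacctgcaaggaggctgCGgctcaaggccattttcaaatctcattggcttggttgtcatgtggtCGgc
Hoxa11: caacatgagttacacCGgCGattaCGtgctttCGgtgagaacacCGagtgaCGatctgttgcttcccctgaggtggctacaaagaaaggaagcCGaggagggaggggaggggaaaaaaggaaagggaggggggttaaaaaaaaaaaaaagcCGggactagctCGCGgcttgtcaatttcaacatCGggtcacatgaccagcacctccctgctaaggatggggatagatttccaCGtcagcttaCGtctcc
Hoxa13: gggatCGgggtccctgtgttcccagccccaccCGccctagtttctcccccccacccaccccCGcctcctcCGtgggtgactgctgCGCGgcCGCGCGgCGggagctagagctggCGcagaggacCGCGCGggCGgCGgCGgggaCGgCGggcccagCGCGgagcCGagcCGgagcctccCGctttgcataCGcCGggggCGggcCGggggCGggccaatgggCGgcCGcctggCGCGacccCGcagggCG
Hoxd13: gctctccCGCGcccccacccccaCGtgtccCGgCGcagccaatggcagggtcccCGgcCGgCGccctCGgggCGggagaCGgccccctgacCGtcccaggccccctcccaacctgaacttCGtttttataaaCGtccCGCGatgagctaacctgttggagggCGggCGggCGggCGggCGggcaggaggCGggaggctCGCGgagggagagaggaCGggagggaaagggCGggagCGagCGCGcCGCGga

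The next 3 stretches are of HoxB and are shown because they were among the regions that had summits in db/db mice and in no Ctrl mouse. Each is 200 bases of the plus strand of mm10, centred on the median summit, with CG in capitals. The first (chr11:96251419-96251618) lies in an exon of *Gm53*, a long noncoding RNA between *Hoxb13* and *Hoxb9*. The second (chr11:96261561-96261760) lies in another exon of *Gm53*, and the third (chr11:96271785-96271984) lies in a coding exon of *Hoxb9*.
Gm53 exon, upstream: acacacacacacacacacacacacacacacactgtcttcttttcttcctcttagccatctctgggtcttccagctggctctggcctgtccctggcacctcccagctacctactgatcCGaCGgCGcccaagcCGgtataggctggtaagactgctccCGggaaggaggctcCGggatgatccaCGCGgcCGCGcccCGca
Gm53 exon, downstream: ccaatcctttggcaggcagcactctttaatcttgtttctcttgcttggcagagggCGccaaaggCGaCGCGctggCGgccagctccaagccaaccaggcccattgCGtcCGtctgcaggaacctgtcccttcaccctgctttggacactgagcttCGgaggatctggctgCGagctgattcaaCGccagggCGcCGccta
Hoxb9 coding exon: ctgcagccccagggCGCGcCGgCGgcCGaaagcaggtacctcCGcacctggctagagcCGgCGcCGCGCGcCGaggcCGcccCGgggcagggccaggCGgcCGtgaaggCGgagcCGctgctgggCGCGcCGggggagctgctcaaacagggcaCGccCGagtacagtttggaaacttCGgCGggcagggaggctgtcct

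Library lists were between 29702 and 56659 summits long, so each was cut to its 29702 highest-scoring summits. The number of reads is not known here, so no counting intervals are given. In the cut lists, 45.7 to 52.0% of all protein-coding genes were open, that is, had a summit no more than 1 kb from any start, with means of 51.6% in Ctrl, 47.8% in Case and 48.5% in Dapa. The kidney label held in the markers: *Lrp2*, *Slc12a3*, *Cdh16* and *Hnf4a* had a promoter summit in all 17 libraries. Case mouse 3 stood apart in its markers. Dapa mouse 8 lay slightly above the remaining libraries in leukocyte markers, with an epithelial count that Case 2 shared. Case mouse 3 had summits at 7 of 18 leukocyte markers and 7 of 20 kidney epithelial markers, and Dapa mouse 8 at 4 and 9, whereas the other Case and Dapa libraries had summits at 0 to 3 leukocyte and 9 to 14 epithelial markers and Ctrl at 0 to 2 and 11 to 14. Of the 18 leukocyte markers, 8 had no summit in any library, *Ptprc* among them. The most often seen were *Coro1a*, with a summit in 6 libraries, and *Lck* and *Cd74*, in 5 each. Results that rest on Case 3 or Dapa 8 are given with and without them, an alternative chosen after the data were seen for promoter presence, regions and cluster counts.

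Which *Hox* promoters were open in the kidney was asked first. Of 38 members, 24 had a promoter summit in at least 1 library and 2, *Hoxa3* and *Hoxa5*, in all 17. The other 14 members (36.8%) had none, against 32.9% of all protein-coding genes. Members open in all libraries made up 5.26% of *Hox* genes but 31.6% of all genes, and members open in some libraries 57.9% against 35.5%. The median *Hox* gene was open in 2 libraries and the median gene in 8. More *Hox* promoters than promoters at large were thus open in some libraries and not in others. Bulk tissue was profiled, so a summit seen in fewer libraries cannot be told apart as fewer open cells or as weaker opening per cell.

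HoxA held the most widely open members. *Hoxa3*, which patterns the pharyngeal organs, and *Hoxa5*, needed for lung development, were found in all libraries. For *Hoxa3* this count joins several annotated starts. The region near a *Hoxa3* start at chr6:52183190-52183868 was found in 14 libraries. Case 3, Dapa 8 and Dapa 9 had only the region near another start, between *Hoxa6* and *Hoxa7* (chr6:52212411-52213645). *Hoxa4*, *Hoxa7* and *Hoxa10* were found in 15 each, and *Hoxa9*, like *Hoxa7* a gene of the trunk that is also active in blood progenitors, in 13. *Hoxa2*, *Hoxa6*, *Hoxa11* and *Hoxa13* were found in none. HoxB held no member open in more than 8 libraries. *Hoxb4*, known from blood stem cells, was found in 8 libraries, *Hoxb9* in 7, *Hoxb5* in 5, *Hoxb7*, a gene of the ureteric bud and collecting duct, in 3, *Hoxb6* in 2 and *Hoxb3* in 1. *Hoxb1*, *Hoxb2*, *Hoxb8* and *Hoxb13* were found in none.

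In HoxC, *Hoxc10* and *Hoxc5* were found in the same 13 libraries by the same summit, since 1 annotated *Hoxc5* transcript starts near *Hoxc10*. They are 1 observation, although the counts of members given here hold both genes. *Hoxc9* was found in 2 libraries and *Hoxc6*, *Hoxc8* and *Hoxc11* in 1 each, while *Hoxc4*, *Hoxc12* and *Hoxc13* were found in none. In HoxD, *Hoxd4* was found in 13 libraries, *Hoxd10* in 12, *Hoxd3* and *Hoxd9* in 7, *Hoxd8* in 6 and *Hoxd1* in 2. *Hoxd3* shared its summit with *Hoxd4* in all 7. *Hoxd11*, *Hoxd12* and *Hoxd13*, which shape limbs and the urogenital tract, were found in none. In the complete lists, *Hoxa2* and *Hoxb2* also had a summit, in 1 Ctrl library each, which left 12 members with none.

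**Figure D1:**
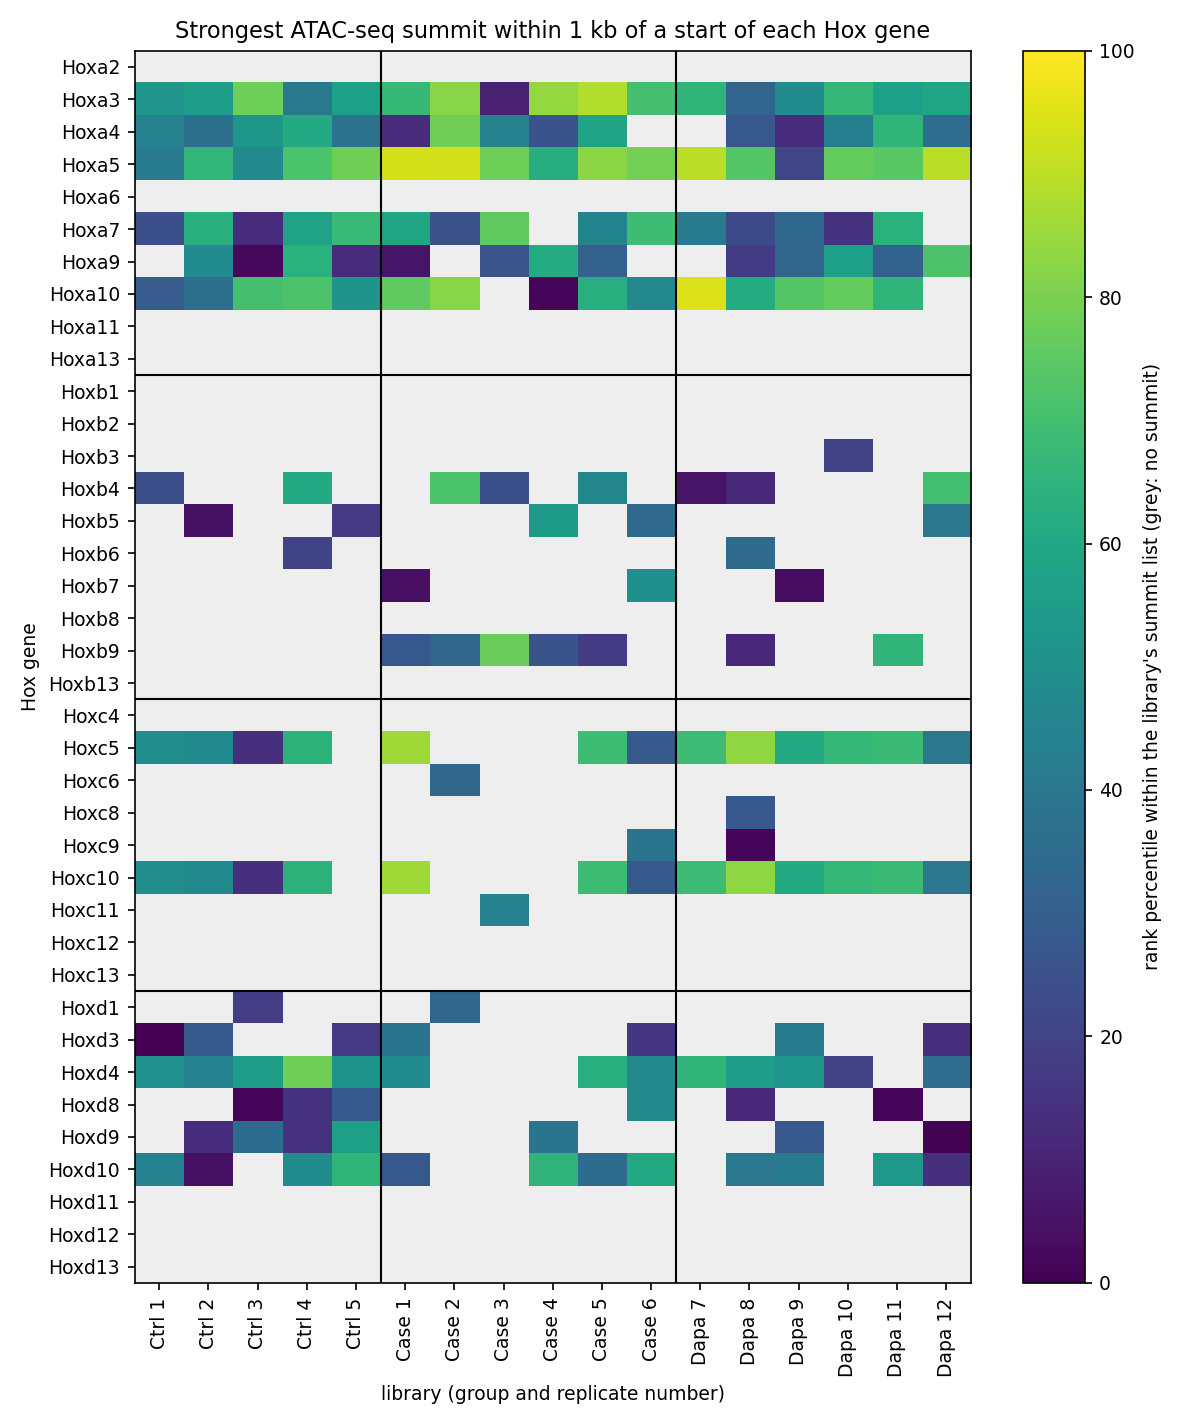
Rank percentile (100 for the strongest summit of a library's list) of the strongest summit within 1 kb of a start of each of the 38 *Hox* genes (rows) in each of the 17 libraries (columns, by group), grey where there was no summit. The rows of *Hoxa3* and *Hoxa5* are filled throughout, and those of 14 genes are grey throughout.

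The open members fell in the middle of the clusters by paralog number. Paralogs 3 to 10 (25 genes) had a summit in 193 of 425 gene-library pairs, or 45.4%. Paralogs 1 and 2 (4 genes) had a summit in 2 of 68 pairs, or 2.94%. Paralogs 11 to 13 (9 genes) had a summit in 1 of 153 pairs, or 0.654%, and in 2 pairs in the complete lists. That single pair was *Hoxc11* in Case 3. The borders were sharp within clusters: *Hoxa10* was open in 15 libraries and its neighbour *Hoxa11* in 0, and *Hoxd10* was open in 12 and its neighbour *Hoxd11* in 0. Pairs of 1 library are not independent, so this is a description.

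Inside the open range, paralog numbers differed. Paralogs 10 (*Hoxa10*, *Hoxc10*, *Hoxd10*) had a summit in 78.4% of pairs and paralogs 5 in 68.6%, where 13 of the 35 pairs of paralogs 5 are *Hoxc5* by the summit it shares with *Hoxc10*. Paralogs 6 (*Hoxa6*, *Hoxb6*, *Hoxc6*) had one in 5.88% and paralogs 8 in 13.7%, beside 52.9% for paralogs 7 and 42.6% for paralogs 9. This contrast did not hold in every cluster, as *Hoxb7* was open in 3 libraries and *Hoxc9* in 2. Paralogs 10 stood at 86.7% in Ctrl, 66.7% in Case and 83.3% in Dapa, and paralogs 6 at 6.67%, 5.56% and 5.56%. Case 3 had no summit at *Hoxa10*, *Hoxc10* or *Hoxd10*, so the Case share of paralogs 10 would be higher without that mouse.

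**Figure D2:**
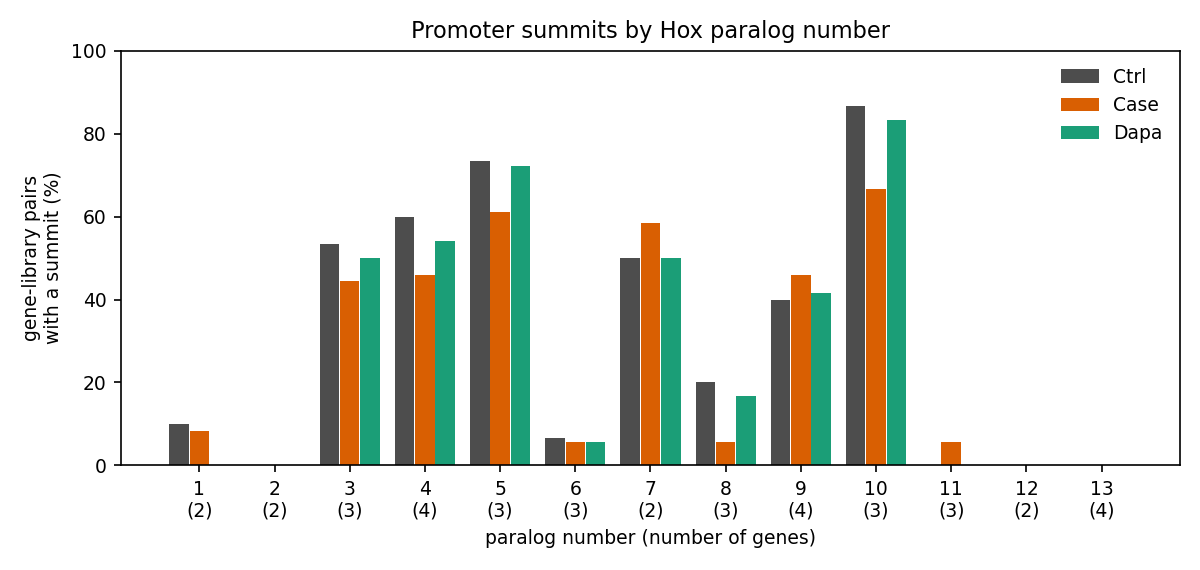
Share of gene-library pairs with a promoter summit (%, bars from 0) for each paralog number, by group (Ctrl n = 5, Case n = 6, Dapa n = 6), with the number of genes in brackets. Paralogs 10 reach 66.7 to 86.7% in each group, and paralogs 12 and 13 stand at 0.

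The base composition of the promoters was set beside how widely their genes were open at any start. The RefSeq table held promoters for 22 of the 38 members (24 promoters of 300 bases, 250 of them upstream). The median *Hox* promoter held 14.5 CG dinucleotides and the median of 32544 mouse promoters held 7. Promoters of members open in at least 12 libraries held a median of 16 CG (range 4 to 29, 8 promoters), those open in 1 to 11 libraries 20 (range 6 to 29, 5 promoters), and those open in none 13 (range 4 to 45, 11 promoters). The grouping was by gene. The windows of *Hoxa3*, *Hoxa7*, *Hoxa9*, *Hoxd4* and the downstream *Hoxa10* promoter held no summit in any library. These medians therefore do not compare open with closed windows. The promoter of *Hoxa13*, open in none, held 45, a number that 1.95% of mouse promoters reach. That of *Hoxd13*, also open in none, held 37, which 5.63% reach, and that of *Hoxa5*, open in all, held 29.

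How strong the summits were was read from the rank percentile, which is 100 for the strongest summit of a library's list and 0 where the gene had none. In each cluster the member with the highest median, and each member with an unadjusted p under 0.05 in any comparison, is given by its values in Ctrl and by its range and median in the groups of 6. *Hoxa5* stood at 41.2, 66.3, 47.8, 71.7 and 78.2 in Ctrl. It ranged from 62.2 to 93.6 in Case with a median of 80.8, and from 20.9 to 89.8 in Dapa with a median of 75.3. *Hoxa5* was thus strong in most mice, and the groups overlapped. Its mean was 81.4 ± 11.6 (SD, n = 6) in Case and 61.0 ± 15.8 (n = 5) in Ctrl, a difference of 20.3 points (SE 10.8, exact permutation p = 0.0368, limma adjusted p = 0.462).

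*Hoxb9*, which with its paralogs patterns the thoracic skeleton, had no summit in any of the 5 Ctrl mice. In Case it ranged from 0 to 77.0 with a median of 26.6, and 5 of 6 mice had a summit. In Dapa it ranged from 0 to 65.4 with a median of 0, and 2 of 6 mice had a summit. The highest Case value was that of mouse 3, and Case 6 had none, so the groups overlapped at 0.

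*Hoxc10*, a gene of the lumbar region, stood at 48.9, 47.8, 13.9, 64.6 and 0 in Ctrl. It ranged from 0 to 85.8 in Case with a median of 14.1, with 3 mice at 0, and from 39.7 to 83.5 in Dapa with a median of 67.5. Every Dapa mouse had this summit, while 1 Ctrl mouse and 3 Case mice did not. The groups overlapped, as the highest value of all was that of a Case mouse.

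*Hoxd4*, which acts in the hindbrain and neck, stood at 50.4, 44.1, 55.8, 78.4 and 51.6 in Ctrl. It ranged from 0 to 62.7 in Case with a median of 23.6, and from 0 to 65.6 in Dapa with a median of 44.0. It was missing from 3 of the Case mice and 1 of the Dapa mice, and from no Ctrl mouse. *Hoxd9* stood at 0, 12.6, 35.3, 14.7 and 57.0 in Ctrl. It was 0 in all Case mice except Case 4, at 38.4, and in Dapa it reached 27.9 in mouse 9 and 0.689 in 1 other mouse. Its summits were found in 4 Ctrl mice and 3 db/db mice.

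Counted per mouse, the groups overlapped in the number of open *Hox* promoters. Ctrl mice had 11, 13, 12, 14 and 12, a mean of 12.4 ± 1.14 (SD, n = 5). Case mice had 8 to 13 a mean of 10.7 ± 2.25 (n = 6), and Dapa mice had 8 to 16 with a median of 11.5, a mean of 11.7 ± 2.73 (n = 6). The lowest Case value of 8 was that of Case 3 and the highest Dapa value of 16 that of Dapa 8. All ranges overlapped, and without Case 3 and Dapa 8 the Case minus Ctrl difference moved from -1.73 to -1.2 genes. The Dapa minus Case difference moved from 1 to -0.4 genes without these 2 libraries. Among the strongest 14851 summits, Case and Dapa stood above Ctrl, by 0.167 and 0.667 genes, so the order of the groups was not stable. In the complete lists, which differ in length, the means were 16 in Ctrl, 12.2 in Case and 13.8 in Dapa.

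Single promoters were then compared between Case and Ctrl, which differ in *Lepr* genotype, diabetes and strain background together. *Hoxb9* was the single member among 8 that could be tested whose presence differed at an unadjusted p under 0.05. All 5 Ctrl mice lacked it and 5 of 6 Case mice had it (2-sided Fisher's exact p = 0.0152), and the adjusted p was 0.133. Of 1558 genes tested, 11.4% passed the unadjusted threshold and 0 passed after Benjamini-Hochberg adjustment, with a smallest adjusted p of 0.102. Only 0.321% (5 genes) passed in the direction of *Hoxb9*, higher in Case. In the complete lists *Hoxb9* was open in all 6 Case mice and still in no Ctrl mouse. This gives the smallest Fisher's exact p that this design allows, 0.00216. The adjusted p of the promoter in these lists is not given here. The merged region at *Hoxb9*, described below, had the same Fisher's exact p there and an adjusted p of 0.141, past no adjusted threshold. Without Case 3 and Dapa 8 it was open in 4 of 5 Case mice, and the Fisher's exact p was 0.0476.

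The *Hoxb9* call depended on the list and the window used. Among the strongest 14851 summits of each library the difference was 16.7 points (Fisher's exact p = 1), and with summits scoring at least 5 it was 33.3 points (Fisher's exact p = 0.455). With a window of 500 bp it was 66.7 points (Fisher's exact p = 0.0606), so part of the summits lay beyond that distance from a start.

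On the rank scale, 20 members were among the 13165 genes tested. In Case 10 were higher and 10 lower, with a median difference of -0.417 points beside -2.27 for all genes tested. *Hoxb9* differed by 30.1 points (SE 12.0, exact permutation p = 0.0152, limma adjusted p = 0.293), the single member among 20 under an unadjusted 0.05 with limma. Of all genes, 12.3% passed that threshold and 0.585% (77 genes) passed after adjustment, none of them a *Hox* gene. The exact permutation test put *Hoxb9* and *Hoxa5* under an unadjusted 0.05, where 12.2% of all genes were, and 0 genes under an adjusted 0.05. Without Case 3 the *Hoxb9* difference was 20.7 points and no longer under an unadjusted 0.05 with limma. *Hoxd4* stood at 26.4 in Case and 56.1 in Ctrl (exact permutation p = 0.0952), and *Hoxd9* at 6.41 and 23.9 (exact permutation p = 0.164).

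The effect of dapagliflozin was asked by comparing Dapa with Case. Of 2 members whose presence could be tested, 0 differed at an unadjusted p under 0.05 by Fisher's exact test, where 1.58% of 1075 genes did and 0 after adjustment. *Hoxb9* was open in 2 Dapa mice and 5 Case mice (Fisher's exact p = 0.242). By rank, 7 members were higher and 13 lower in Dapa, with a median of -5.75 points beside 0.0393 for all genes. The shared *Hoxc10* and *Hoxc5* summit was higher by 34.2 points (SE 15.9, exact permutation p = 0.0801, limma adjusted p = 0.837). It makes up both members under the unadjusted limma threshold, which 5.7% of genes passed. The exact permutation test put 0 members under 0.05, where 3.62% of genes were. After adjustment 0.0076% (1 gene) passed. The call was lost without Case 2, 3 or 4 (28.1 points each), Case 6 (33.7) or any of Dapa 7 to 11 (30.4 to 34.9). Without Case 3 and Dapa 8 the difference was 24.3 points and past no threshold, and with only the annotation's basic transcripts or the nearest start *Hoxc5* differed by 6.28 points.

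Whether treated mice differed from Ctrl was asked by comparing Dapa with Ctrl. Of 4 members whose presence could be tested, 0 differed by Fisher's exact test, where 8.63% of 1448 genes did at an unadjusted p under 0.05 and 0 after adjustment. By rank, 11 members were higher and 9 lower, with a median of 0.211 points beside -2.11 for all genes, and 0 members were under an unadjusted 0.05 with limma, where 12.5% of genes were. The exact permutation test put 2 members under it, which are the single *Hoxc10* and *Hoxc5* summit (29.6 points higher in Dapa, exact p = 0.039), where 13.2% of all genes were. After adjustment 0.387% (51 genes) passed with limma, none of them a *Hox* gene. *Hoxd9* came nearest to the limma threshold, at 4.76 in Dapa and 23.9 in Ctrl (exact permutation p = 0.13).

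Both db/db groups together were compared with Ctrl. These 12 mice share the Ctrl mice with the comparisons above. Of 12 members whose presence could be tested 1 differed, where 9.96% of 3635 genes did at an unadjusted p under 0.05 and 0 after adjustment. This was *Hoxb9*, open in 7 of the 12 db/db mice but in no Ctrl mouse (Fisher's exact p = 0.0441, adjusted p = 0.443), and 0.743% of genes passed in that direction. The call was lost without any single Ctrl mouse (Fisher's exact p = 0.0885), without any of Case 1 to 5, Dapa 8 or Dapa 11 (Fisher's exact p = 0.0934), and without Case 3 and Dapa 8 (Fisher's exact p = 0.101). By rank, 12 members were higher and 8 lower, with a median of 1.74 points beside -2.31 for all genes. *Hoxd9* was lower in db/db mice, at 5.58 against 23.9 (difference -18.3, SE 8.26, exact permutation p = 0.0436, limma adjusted p = 0.326), where 13.9% of genes passed the unadjusted threshold with limma, 13.1% with exact permutation, and 1.04% (137 genes) the adjusted one with limma. This call was kept without Ctrl 1, 2 or 4, Case 4 or Dapa 9 and lost without any other single mouse, at -10.1 points without Ctrl 5, -15.5 without Ctrl 3 and -17.7 to -17.9 without the rest.

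The clusters were then read along their whole length, from the first to the last member gene with 1 kb added to each side. HoxA (chr6:52161417-52261880) held 10.0 ± 1.58 summits per mouse in Ctrl (SD, n = 5), 9.67 ± 3.08 in Case (n = 6) and 9.0 ± 1.26 in Dapa (n = 6). HoxC (chr15:102920103-103037852) held 2.6 ± 0.894, 2.5 ± 1.52 and 2.5 ± 1.05. In both clusters the group means lay within 1 SD of each other.

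HoxB (chr11:96193316-96369256) held 10, 5, 5, 9 and 6 summits in the Ctrl mice, 3 to 15 with a median of 11 in Case, and 8 to 12 with a median of 11 in Dapa. The means were 7.0 ± 2.35 (n = 5), 10.7 ± 4.5 (n = 6) and 10.5 ± 1.38 (n = 6). Most db/db mice stood at or above the highest Ctrl mouse, while Case 3, at 3, stood below all Ctrl mice, and the ranges overlapped. Without Case 3 and Dapa 8 the Case minus Ctrl difference was 5.2 summits instead of 3.67. It was 1.9 among the strongest 14851 summits and 0.667 in the complete lists, and with scores of at least 5 it was 0.0333. The last 2 use lists of unequal length, and the complete lists held on average 45444 summits in Ctrl and 37299 in Case. Dapa minus Ctrl was 3.5 summits, 0.9 among the strongest 14851, 1.17 in the complete lists and -0.633 with scores of at least 5. For db/db minus Ctrl it was 3.58, and -0.3 with scores of at least 5, so the direction was not stable.

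HoxD (chr2:74667310-74766142) went the other way, with 5, 4, 6, 7 and 6 summits in Ctrl, 0 to 5 with a median of 3 in Case, and 3 to 5 with a median of 4 in Dapa. The means were 5.6 ± 1.14 (n = 5), 2.83 ± 2.04 (n = 6) and 4.0 ± 0.894 (n = 6). Case 3 had no HoxD summit at all, and the groups overlapped at 4 and 5. Without Case 3 and Dapa 8 the Case minus Ctrl difference was -2.2 summits instead of -2.77, and it ranged from -3.47 in the complete lists to -1.17 among the strongest 14851 summits.

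**Figure D3:**
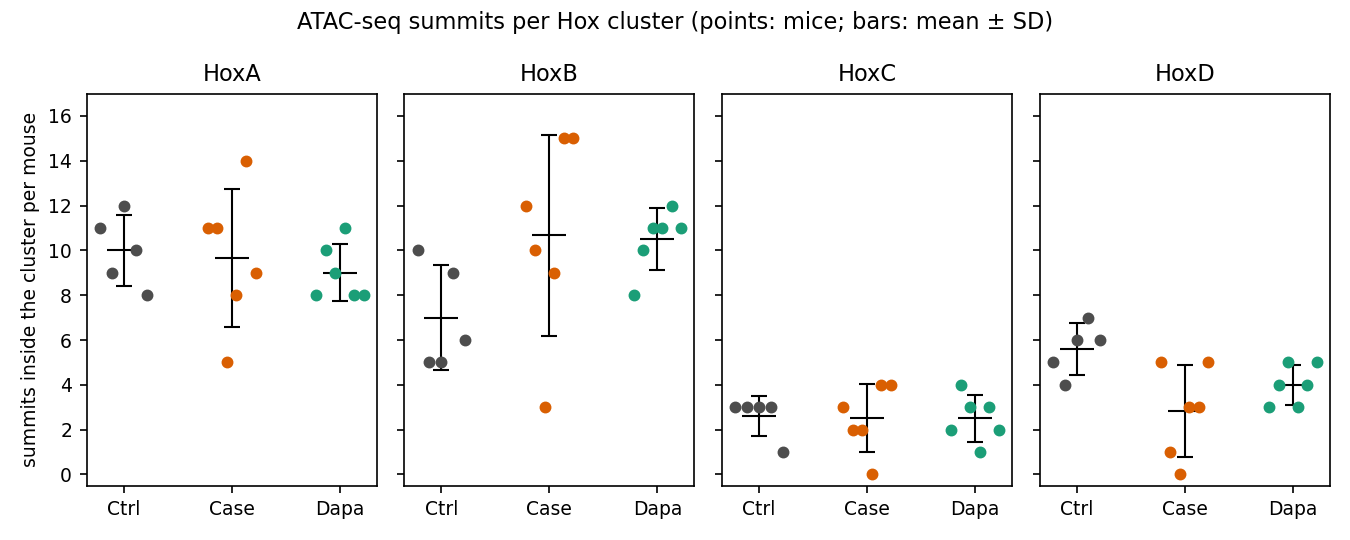
Number of summits inside each *Hox* cluster per mouse (vertical axis, points) with mean ± SD (black) in Ctrl (n = 5), Case (n = 6) and Dapa (n = 6). In HoxB the Ctrl mice lie between 5 and 10 and the Dapa mice between 8 and 12, and in HoxD the Ctrl mice lie between 4 and 7 and the Case mice between 0 and 5.

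Merging summits over libraries gave 52371 regions seen in at least 2 libraries, 50 of them inside the clusters (13 in HoxA, 23 in HoxB, 5 in HoxC and 9 in HoxD). A member start lay within 1 kb of 23 of these, and 27 lay away from any. The region of the *Hoxa5* start, alone among the 50 (2%), was found in all 17 libraries, against 15.0% of all regions. In HoxB, 10 of 23 regions (43.5%) were found in no Ctrl mouse, against 22.2% of all regions, and the other clusters had no such region. These 10 made up 20% of the 50 *Hox* regions, near the share of all regions. In the complete lists 5 of these 10 had a summit in at least 1 Ctrl mouse. These shares describe the regions and carry no test.

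The *Hoxb9* region (chr11:96271474-96272652) was the single 1 of 15 testable *Hox* regions that differed between Case and Ctrl at an unadjusted p under 0.05. It was found in 5 of 6 Case mice, 0 of 5 Ctrl mice and 1 of 6 Dapa mice (Fisher's exact p = 0.0152, adjusted p = 0.149), where 10.2% of 11404 regions passed, 0.868% higher in Case, and 0 after adjustment. For Dapa against Case, 0 of 10 *Hox* regions passed, where 1.18% of 7224 regions did and 0 after adjustment. Without Dapa 11, which alone among Dapa mice had the *Hoxb9* region, or without Case 6, which alone among Case mice lacked it, that region passed (Fisher's exact p = 0.0152 in both, adjusted p = 1 and 0.847). For Dapa against Ctrl, 0 of 13 *Hox* regions passed, where 7.91% of 10867 regions did and 0 after adjustment. Without Dapa 7, Dapa 8 or Dapa 11, 1 or both of the *Gm53* regions printed above passed (Fisher's exact p = 0.0476). The *Hoxb9* call for Case against Ctrl was kept without any single mouse.

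For all db/db mice against Ctrl, 3 of 35 testable *Hox* regions passed, where 9.29% of 27403 regions did, 1.22% higher in db/db, and 0 after adjustment. All 3 were in HoxB and were higher in db/db mice. Neither the regions nor the direction held in shorter lists. Among the strongest 14851 summits 1 region passed, in the intron shared by *Hoxd3* and *Hoxd4*, with 3 Ctrl and 0 db/db mice (Fisher's exact p = 0.0147), and with scores of at least 5 the 4 regions that passed were other regions, each found less often in db/db mice. The upstream *Gm53* region (chr11:96250886-96251820), 125 bp from an annotated *Gm53* start, was found in 4 Case mice, 4 Dapa mice and no Ctrl mouse (Fisher's exact p = 0.0294, adjusted p = 0.387). Its summits ranked at 6.25 to 49.2 where present. The downstream *Gm53* region (chr11:96261374-96261995) was found in 3 Case, 4 Dapa and 0 Ctrl mice (Fisher's exact p = 0.0441, adjusted p = 0.468). The third (chr11:96345966-96346689) lies in a coding exon of *Hoxb3* that the antisense RNA *Hoxb3os* also covers, and was found in 4 Case, 3 Dapa and 0 Ctrl mice with the same p. In the complete lists only the upstream *Gm53* region stayed at 0 of these 3 in Ctrl, as the others were found in 1 and 2 Ctrl mice. There the *Hoxb9* region also passed, in 8 db/db mice and 0 Ctrl mice (Fisher's exact p = 0.0294). The intron region shared by *Hoxd3* and *Hoxd4* passed in the other direction, in 5 db/db mice and 5 Ctrl mice (Fisher's exact p = 0.0441). The upstream *Gm53* call was lost without any single Ctrl mouse and kept without any single db/db mouse. The downstream *Gm53* call was also lost without Case 1, 5 or 6 or Dapa 9, 10, 11 or 12, and the *Hoxb3* call without Case 2, 4, 5 or 6 or Dapa 9, 10 or 12. Without Case 3 and Dapa 8, 3 regions passed for Case against Ctrl and 4 for db/db against Ctrl.

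The stretch between the end of *Hoxb13* and the start of *Hoxb9* (chr11:96197448-96271456, 74.0 kb) holds *Gm53* and the miRNA gene *Mir196a-1*. It was singled out after its values were seen, so the counts are a description. It held 0, 0, 0, 1 and 0 summits in Ctrl, 0 to 5 in Case and 1 to 3 in Dapa, with 1 Ctrl mouse, 5 Case mice and all 6 Dapa mice holding any. In the complete lists Ctrl held 0, 2, 0, 1 and 0, Case 0 to 7 and Dapa 2 to 4. The part of HoxB that follows *Hoxb7* towards *Hoxb1* (78.1 kb) held 4 to 9 summits in Ctrl, 2 to 9 in Case and 6 to 8 in Dapa. In the cut lists the group means thus differed more in the 5′ stretch (0.2 in Ctrl, 2.33 in Case, 2.33 in Dapa) than after *Hoxb7* (6.4, 6.17, 7.33). In the complete lists Case also differed from Ctrl after *Hoxb7*, in the other direction. Means there were 10.6 in Ctrl, 8 in Case and 9.83 in Dapa, beside 0.6, 3 and 2.67 in the 5′ stretch. The complete-list ranges after *Hoxb7* overlapped, at 9 to 13 in Ctrl, 2 to 14 in Case and 7 to 13 in Dapa.

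**Figure D4:**
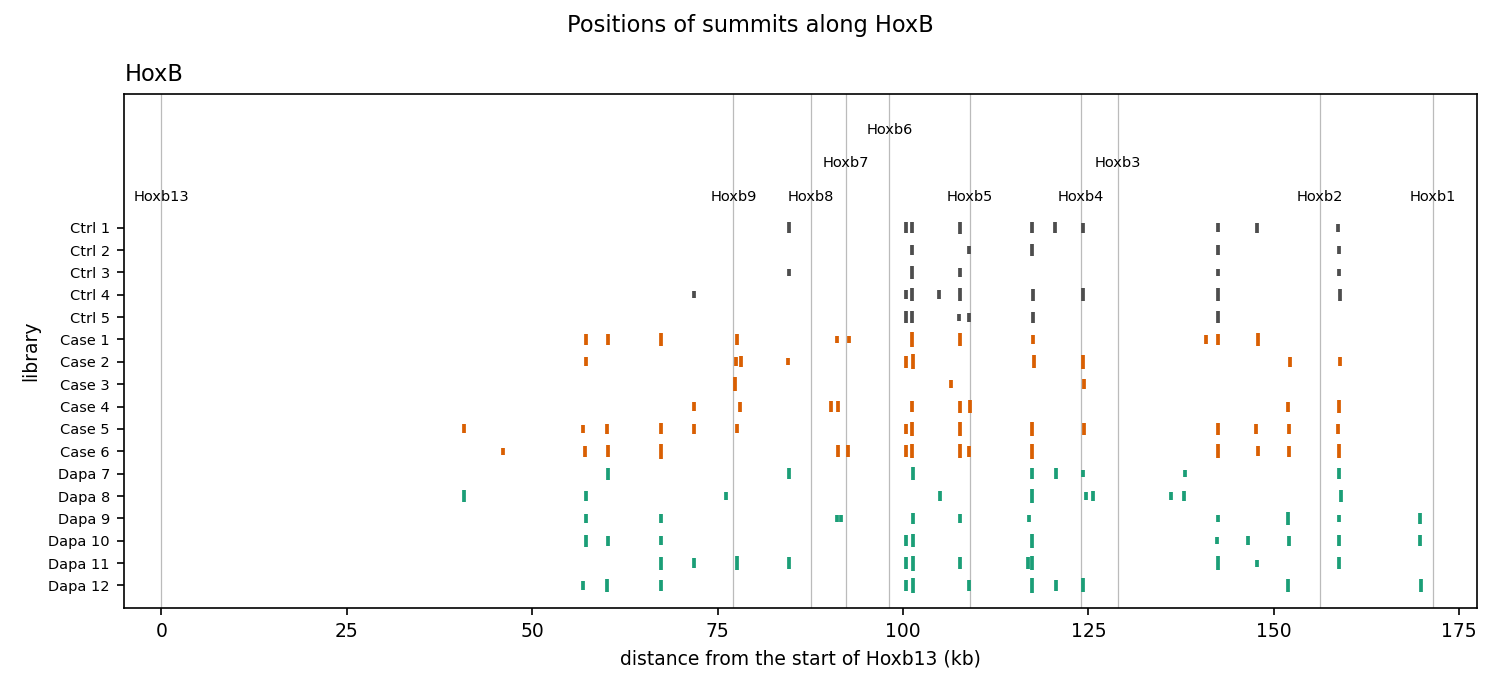
Position of each summit along HoxB (horizontal axis, kb from the start of *Hoxb13*) in each library (rows, coloured by group), with taller marks for higher rank percentiles and grey lines at the most upstream annotated start of each gene. Between *Hoxb13* and *Hoxb9* the Ctrl rows hold 1 summit in all, and 11 of 12 db/db rows hold at least 1.

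With all mice, the other named regions away from member starts were not under an unadjusted 0.05 in the lists of 29702 summits. A *Gm53* intron region (chr11:96254195-96254795) was found in 3 Case, 3 Dapa and 0 Ctrl mice, and passed for db/db against Ctrl without Case 3 and Dapa 8 (Fisher's exact p = 0.044). A region between *Hoxb8* and *Hoxb7* (chr11:96285193-96286192) was found in 3 Case, 1 Dapa and 0 Ctrl mice. A region between *Hoxb2* and *Hoxb1* (chr11:96363731-96364401) was found in 3 Dapa mice and no other. The intron shared by *Hoxd3* and *Hoxd4* (chr2:74724272-74724935) was found in 4 Ctrl mice, 1 Case mouse and 3 Dapa mice (Case against Ctrl, Fisher's exact p = 0.0801, and 0.0476 without Ctrl 2 or without Case 1). With scores of at least 5 this region was found in 4 Ctrl and 0 db/db mice (Fisher's exact p = 0.0021, adjusted p = 0.117), and it was then the region that passed for Case against Ctrl (Fisher's exact p = 0.0152). A *Hoxb3* intron region (chr11:96336408-96337076) was found in all 5 Ctrl, 3 Case and 3 Dapa mice. With scores of at least 5 it was found in 5 Ctrl mice and 1 Dapa mouse (Fisher's exact p = 0.0152, adjusted p = 0.168). It was then found in 4 db/db mice, less often than in Ctrl (Fisher's exact p = 0.0294, adjusted p = 0.284). A *Hoxb5os* intron region (chr11:96301668-96302246) was found in 4 Ctrl, 4 Case and 2 Dapa mice, and a *Hoxd3os1* exon region (chr2:74715557-74716250) in 3 Ctrl, 3 Case and all 6 Dapa mice.

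Some regions away from member starts were open almost throughout and were named after their values were seen. A pair of intron regions of *Hoxa3* (chr6:52177018-52177637 and chr6:52211345-52212016), in an intron of its longest transcripts, were each found in 16 libraries, in all but Case 3. A *Hoxb6* intron region (chr11:96295300-96295942) and an intron region shared by *Hoxc5* and *Hoxc6* (chr15:102999097-103000108) were each found in 15. The *Hoxb6* intron region was thus found in more libraries than any HoxB promoter.

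**Figure D5:**
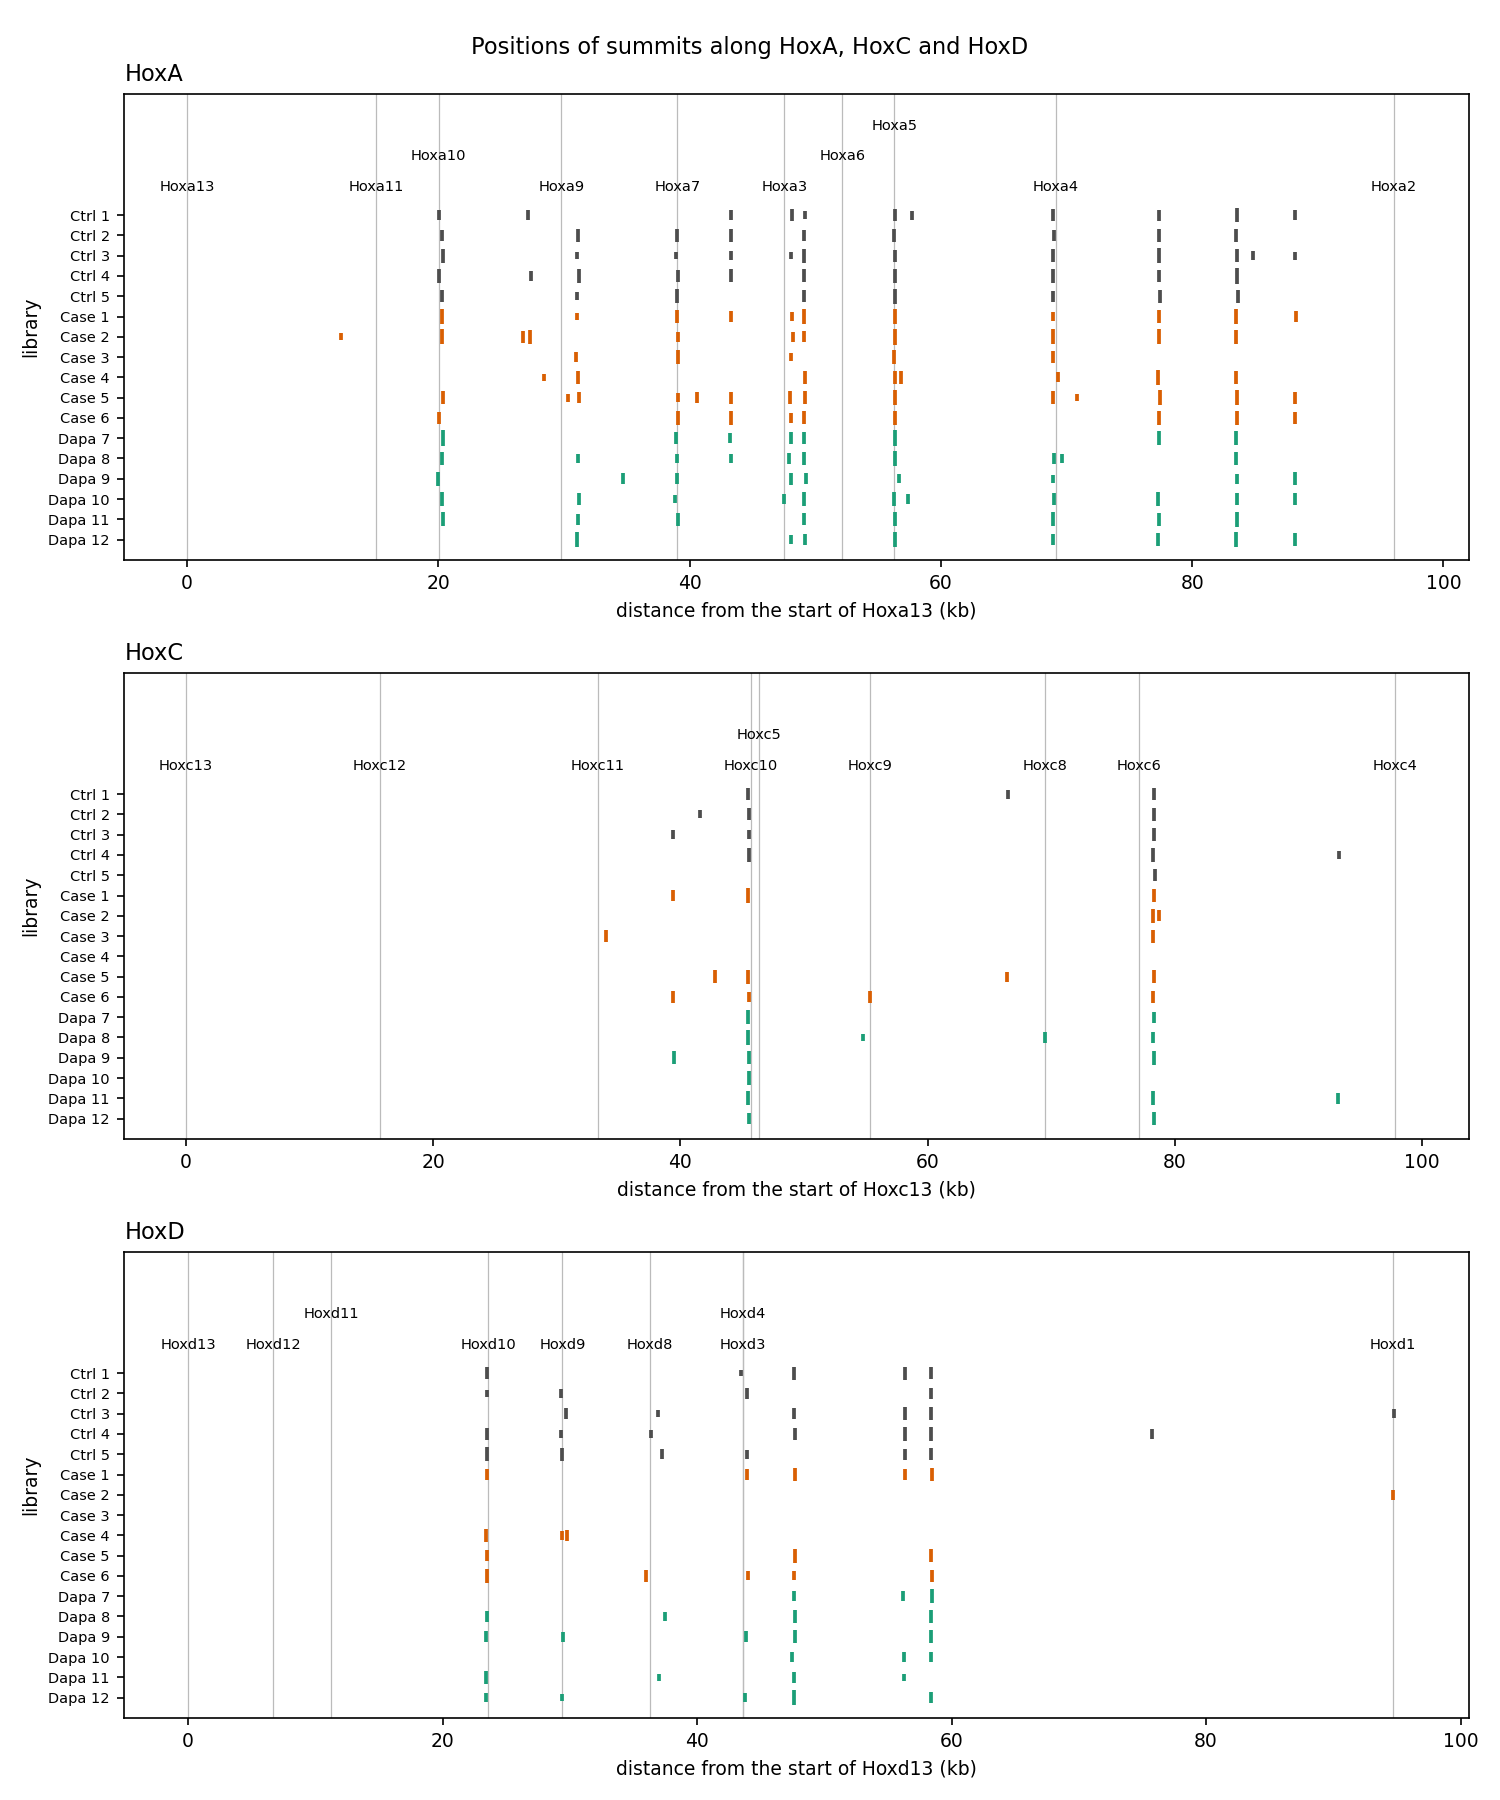
Position of each summit along HoxA, HoxC and HoxD (horizontal axis, kb from the start of *Hoxa13*, *Hoxc13* and *Hoxd13*) in each library (rows, coloured by group), with taller marks for higher rank percentiles and grey lines at the most upstream annotated start of each gene, which for *Hoxa3* and *Hoxc5* lies far from the coding part. Near *Hoxd11*, *Hoxd12* and *Hoxd13* no library has a promoter summit, and Case 3 has no summit in HoxD.

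Region sequence was richer in CG than that of other open regions. In the 200 bases around the median summit the 50 *Hox* regions held a median of 12 CG and all 52362 regions with sequence a median of 3. The *Hox* regions at member starts held 16 and those away from them 9. The *Hoxb9* window printed above held 25 CG, a number that 4.61% of regions reach, and the *Gm53* windows 11 and 12. A CTCF motif (CCAC, N, AG, NN and GGC joined in this order, on either strand) was present in 3.22% of all regions and in 1 of 50 *Hox* regions, at *Hoxa10*. The PBX-HOX motif TGATTNAT, searched on both strands, was present in 2.2% of all regions and in 0 of 50 *Hox* regions. In promoters it was present in 3.23% of all and in 2 of 24 of *Hox* genes, those of *Hoxa2* and *Hoxd11*. A direct repeat of the retinoic acid receptor type (AGGTCA, then NNNNN, then AGGTCA, on either strand) was present in 0.0191% of all regions and in 0 of 50 *Hox* regions. Each motif was searched on its own, and a match is a description of the letters alone.

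Inside the clusters lie 6 miRNA genes. The mature forms of the miR-10 and miR-196 genes share 2 seeds, the bases 2 to 8 that pair with targets, shown in capitals for the members with RefSeq sequence (GRCm38.p6).
mmu-miR-10a-5p: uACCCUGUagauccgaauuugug
mmu-miR-10b-5p: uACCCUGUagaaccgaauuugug
mmu-miR-196a-5p: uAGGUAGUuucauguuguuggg
mmu-miR-196b-5p: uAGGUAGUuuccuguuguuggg

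The miRNA genes of 1 seed differed in how many libraries had a summit near them, a difference that was not tested. *Mir10b*, next to *Hoxd4*, had a summit within 1 kb in 13 libraries (all 5 Ctrl, 3 Case and 5 Dapa mice), and *Mir10a*, next to *Hoxb4*, in 0. *Mir196b*, next to *Hoxa9*, had one in 12 libraries, 4 in each group, *Mir196a-1* in HoxB in 3 and *Mir196a-2* in HoxC in 0. *Mir615*, inside *Hoxc5*, had one in 2 libraries. *Mir10b* takes its count from the region that also holds a *Hoxd4* start, and *Mir196b* from the region of a *Hoxa9* start, so neither is independent of its neighbour.

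Of the genes that act with or on the *Hox* clusters, polycomb and trithorax genes were mostly open. Cofactor genes lay on both sides of the 45.7 to 52.0% of all protein-coding genes open per library. Of 9 cofactor genes, whose proteins bind DNA together with HOX proteins, 4 to 8 had a promoter summit in Ctrl mice, 4 to 6 in Case and 3 to 6 in Dapa. *Pbx3* and *Pknox1* were open in all 17 libraries and *Meis2* in none. Of 13 polycomb genes, 11 to 12 were open in Ctrl, 11 to 13 in Case and 10 to 13 in Dapa, with 8, among them *Ezh2*, *Eed* and *Suz12*, open in all libraries. Of 8 trithorax and related genes, 6 were open in each Ctrl mouse, 6 to 7 in Case and 5 to 7 in Dapa. *Kmt2a*, *Men1* and *Wdr5* were open in all. By Fisher's exact test at an unadjusted p under 0.05, 1 of 5 testable cofactor genes was lower in db/db than in Ctrl mice (*Meis1*, open in 5 Ctrl, 2 Case and 2 Dapa mice and named after its values were seen), where 9.96% of all genes tested passed. At most 2 polycomb and 2 trithorax genes could be tested in any comparison, so their lists were not compared between groups. By contrast, 7 of 8 ParaHox and *Evx* genes, homeobox relatives of the clusters, were open in no library, and *Gsx1* was open in 4. Of 12 genes of kidney development, 4 to 7 were open in Ctrl and 4 to 6 in both db/db groups. *Pax8* and *Sall1* were open in all 17 libraries, and *Six2* and *Gdnf*, which act in the embryo with the paralogs 11, in none. *Itga8*, an integrin of the same mesenchyme, also named after its values were seen, was open in 5 Ctrl, 2 Case and 1 Dapa mice.

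Marker lists were counted in the same libraries, and their part in the results above was not tested. Leukocyte markers with a summit numbered 0 to 2 of 18 in Ctrl, 0 to 7 in Case and 0 to 4 in Dapa, with summed rank percentiles of 0 to 79.99, 0 to 406.8 and 0 to 195.6. Kidney epithelial markers numbered 11 to 14 of 20, 7 to 14 and 9 to 14, with sums of 597.5 to 675.3, 312.1 to 824.9 and 432.6 to 736.6. Endothelial markers numbered 1 to 2 of 10, 0 to 2 and 1 to 2, and stromal markers 0 to 2 of 9, 0 to 2 and 0 to 1. Of 15 housekeeping genes 14 to 15, 12 to 14 and 14 to 15 were open.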

How the data were processed

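ATAC-seq reads of 17 kidney libraries were aligned by the authors to mm10 with Bowtie2, filtered, and peaks were called per library with MACS2 (tool versions not given in the sources used here). The deposited files list each summit with a score, the authors' −log10 of a p-value or q-value. This score depends on depth, so it was used only to rank or filter summits within a library. Each list was cut to its 29702 highest-scoring summits. A gene was open when a summit lay within 1 kb of any start of its protein-coding transcripts (GENCODE M21). Regions were summits extended by 250 bp and merged over libraries, kept when found in at least 2. Mice were grouped by their labels, and no batch is named there.

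Presence was compared by 2-sided Fisher's exact tests over genes or regions whose number of libraries allowed p under 0.05. Rank percentiles were compared with limma 3.58.1 (empirical Bayes with trend, all libraries in 1 fit, the db/db value being the average of the Case and Dapa means) over genes open in at least 2 libraries, beside exact permutation tests. Both used Benjamini-Hochberg adjustment over all features tested, and the study's own DiffBind comparison needs reads, which were not used here. Counts over members carry no test. Python 3.11.15 (scipy 1.17.1) and R 4.3.3 were used, and the tests were tested on simulated data. The members and lists were chosen with earlier results of these data known. Full values are given for the member with the highest median in each cluster and for each member with an unadjusted p under 0.05, and up to 10 regions away from member starts are named by smallest p and then by most libraries. Alternatives were the complete lists, the strongest 14851 summits, scores of at least 5, windows of 500 bp and 3 kb, other start sets, region extensions and minimum numbers of libraries, the replicate block and leaving out each mouse.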

Additional observations from a re-analysis of the deposited data

Results flagged for a closer look

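In all, 5 values lay far from the rest of their group among 32 groups of 5 or 6 mice checked, where chance alone is expected to mark about 1 in 20. Dapa 11 had a *Hoxb9* rank percentile of 65.4 while the other Dapa mice stood at 0 to 11.4. Dapa 9 had a *Hoxa5* rank percentile of 20.9 while the others stood at 73.3 to 89.8. The same mouse had a *Hoxd9* rank percentile of 27.9 while the others stood at 0 to 0.689. Case 4 was the single Case mouse with a *Hoxd9* summit, at 38.4. Ctrl 5 had 1 summit in HoxC and the other Ctrl mice had 3 each.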

How the results depend on the processing

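Counts of members and regions below use an unadjusted p under 0.05, and no called value of a named gene changed sign. The cause of each change was not tested. Shares of all features passing under each alternative are not given here. The shares in the lists of 29702 follow for Case against Ctrl, Dapa against Case, Dapa against Ctrl and db/db. By presence 11.4, 1.58, 8.63 and 9.96% of genes passed, and 10.2, 1.18, 7.91 and 9.29% of regions. By rank with limma 12.3, 5.7, 12.5 and 13.9% of genes passed. For promoter presence, Case against Ctrl gave 0 members with the strongest 14851 summits, scores of at least 5 or a 500 bp window. The db/db comparison gave 0 members with the strongest 14851 summits, a 500 bp window or without Case 3 and Dapa 8, and 2 with scores of at least 5 or a 3 kb window. For regions, Case against Ctrl gave 0 with the strongest 14851 summits or extension by 100 bp and 3 without Case 3 and Dapa 8, db/db against Ctrl gave 1 with the strongest 14851 summits, lower in db/db where those in the lists of 29702 were higher, and Dapa against Ctrl gave 2, both lower in Dapa, with scores of at least 5 and 1 without Case 3 and Dapa 8.

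For rank percentiles, Case against Ctrl gave 2 members with a 3 kb window, genes in at least 6 libraries, scores of at least 5, the strongest 14851 summits or exact permutation, 3 with complete lists and 0 with a 500 bp window. Dapa against Case gave 1 with a 500 bp window, basic transcripts, the strongest 14851 summits or without Case 3 and Dapa 8, and 0 with the nearest start, scores of at least 5 or exact permutation. Dapa against Ctrl gave 1 with a 3 kb window or complete lists and 2 with scores of at least 5 or exact permutation. The db/db comparison gave 2 with a 3 kb window, complete lists or scores of at least 5, and 0 with genes in at least 6 libraries or without Case 3 and Dapa 8.

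With scores of at least 5, *Hox* genes per mouse differed by -3.9 (Case minus Ctrl), -3.4 (Dapa minus Ctrl) and -3.65 (db/db minus Ctrl), HoxA summits by -2.47, -3.3 and -2.88, and HoxB summits by 0.0333, -0.633 and -0.3, in the same order. HoxA summits differed by -2.83 (Case minus Ctrl) with complete lists, and HoxD summits by -1.17 with the strongest 14851.

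Leaving out 1 mouse gave 1 to 2 members for presence in Case against Ctrl, 0 in Dapa against Case and Dapa against Ctrl, and 0 to 2 for db/db. Regions numbered 1 to 3, 0 to 1, 0 to 2 and 0 to 3, and members by rank 1 to 3, 0 to 2, 0 to 3 and 0 to 3, in that order. *Hox* genes per mouse differed by -2.2 to -1.2, 0.133 to 1.73, -1.6 to 0 and -1.67 to -0.833. Summits differed by -1.2 to 0.6, -1.6 to 0.2, -1.5 to -0.5 and -1.17 to -0.167 in HoxA, 2.8 to 5.2, -1.7 to 0.7, 3 to 4.25 and 3.08 to 4.33 in HoxB, -0.5 to 0.4, -0.5 to 0.3, -0.5 to 0.2 and -0.5 to 0.127 in HoxC, and -3.2 to -2.2, 0.6 to 1.6, -2 to -1.25 and -2.58 to -1.83 in HoxD.

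Replicate numbers 1 to 5 shared by Ctrl and Case did not pair the mice: deviations of same-numbered mice correlated at -0.0362 to 0.0538, and 1 of 5 Ctrl mice matched its own number best. With a replicate block 1 member passed in the paired fit, *Hoxb9* at 36.15 points, the difference without Case 6, which has no numbered partner. Without Case 6 and without the block 2 members passed.

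Of the values for single genes, 443 stayed on their side of the threshold, and 67 lost and 22 gained an unadjusted p under 0.05. No called value changed sign, but some values that were not called did. Leaving out single mice gave -15.6 to 2.84 points for the *Hoxc10* rank percentile in Case against Ctrl. For *Hoxd9* in Dapa against Case it gave -6.27 to 4.76 points. Depth is unknown, so a missing summit does not show closed chromatin.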
